A study of Mus musculus with 4 samples.

Results

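The angiogenic ligands and receptors described here are 10 genes of the 30905 in the deposited count matrix, found by their symbols: the ligands Vegfa, Pgf, Angpt1, Angpt2 and Apln, the receptors Kdr, Flt1, Tek and Aplnr, and the secreted tip-cell product Esm1. They were read in single cells of mouse hearts that had been transplanted into the abdomen and taken on day 5. Of the 4 grafts, 2 were allogeneic (Balb/C donor hearts) and 2 were syngeneic (C57BL/6J donor hearts), all recipients were C57BL/6J mice, and the labels name no transgene or drug. The question of the study was how the cells of a rejected graft differ from those of an accepted one. The deposited matrix joins all grafts, and its cell barcodes end in a suffix from 1 to 4. No label links a suffix to a graft, so the suffixes are called libraries 1 to 4, the whole matrix counts as 1 pooled sample, and no allogeneic level is set against a syngeneic one.

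Because there was no replicate check of any group, no p-value or SD is given. A level is given in CPM, the number of a gene's UMIs (unique molecular identifiers, each marking 1 captured transcript) for every 1000000 UMIs of a pool of cells, with its exact 95% Poisson interval in parentheses. A ratio is taken after adding 10 CPM to both levels, which understates the ratio of low genes, and "apart" means at least 2-fold. These intervals cover counting error only. The kit counts the 3′ end of transcripts, so levels of different genes can be set side by side without division by gene length. A higher level in a pool can come from more cells carrying the transcript or from more transcript per cell, which cannot be told apart from a pooled level.

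In heart endothelium, VEGF-A signals mainly through the receptor tyrosine kinase VEGFR2, encoded by Kdr. VEGFR1, encoded by Flt1, binds VEGF-A tightly with weak kinase activity and also binds placental growth factor, encoded by Pgf. Angiopoietin 1, made by cells around the vessel, activates the receptor TIE2 (Tek) and keeps vessels quiet, while angiopoietin 2, released by endothelial cells, can oppose it. Apelin (Apln) is made by sprouting tip cells and acts on the G protein-coupled receptor encoded by Aplnr, and endocan (Esm1) is a proteoglycan known as a tip-cell marker.

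Kdr, Flt1 and Tek encode the 3 receptor tyrosine kinases of the set, and their start regions are shown because all 3 are highest in endothelial-like cells among the named classes. The RefSeq table used for sequence (GRCm38.p6) held 7 of the 10 members and had none for Angpt1, Angpt2 and Aplnr. Each line gives the 250 bases before the annotated start, 5′ to 3′ on the gene's strand, with GGAA or its reverse complement TTCC, the core letters of ETS-factor sites, in capitals.
Kdr, chr5:75978456-75978705, minus strand: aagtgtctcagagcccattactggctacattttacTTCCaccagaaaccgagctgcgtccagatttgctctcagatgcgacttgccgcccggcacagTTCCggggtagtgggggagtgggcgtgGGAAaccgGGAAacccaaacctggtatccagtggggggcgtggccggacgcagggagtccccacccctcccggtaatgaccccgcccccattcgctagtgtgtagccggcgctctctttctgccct
Flt1, chr5:147726012-147726261, minus strand: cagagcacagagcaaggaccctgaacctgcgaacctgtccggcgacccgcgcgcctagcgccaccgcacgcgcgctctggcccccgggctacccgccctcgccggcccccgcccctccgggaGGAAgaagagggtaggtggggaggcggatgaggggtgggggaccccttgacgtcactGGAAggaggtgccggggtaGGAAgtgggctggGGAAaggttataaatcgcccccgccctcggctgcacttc
Tek, chr4:94739039-94739288, plus strand: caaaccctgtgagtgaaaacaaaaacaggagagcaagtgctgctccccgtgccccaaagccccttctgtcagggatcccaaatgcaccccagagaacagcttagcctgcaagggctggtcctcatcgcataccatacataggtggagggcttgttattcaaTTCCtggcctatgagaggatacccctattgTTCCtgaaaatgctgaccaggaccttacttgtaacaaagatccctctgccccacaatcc
The core occurred 4 times before Kdr, 4 times before Flt1 and 2 times before Tek. It occurred at least once in 93.4% of the 32851 promoter entries of the table, with a median of 3 matches, so its presence does not set these genes apart.

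The matrix names genes by symbol and Ensembl identifier, and their places are from GENCODE M21 on GRCm38 (mm10). Of the ligands, Vegfa (ENSMUSG00000023951) lies at chr17:46016993-46032369 on the minus strand, and Pgf (ENSMUSG00000004791) lies at chr12:85166635-85177790 on the minus strand. Angpt1 (ENSMUSG00000022309) lies at chr15:42424723-42676977 on the minus strand, and Angpt2 (ENSMUSG00000031465) lies at chr8:18690263-18741562 on the minus strand. Apln (ENSMUSG00000037010) lies at chrX:48025146-48034853 on the minus strand. Of the receptors, Kdr (ENSMUSG00000062960) lies at chr5:75932827-75978458 on the minus strand, and Flt1 (ENSMUSG00000029648) lies at chr5:147561604-147726011 on the minus strand. Tek (ENSMUSG00000006386) lies at chr4:94739289-94874976 on the plus strand, Aplnr (ENSMUSG00000044338) lies at chr2:85136225-85139923 on the plus strand, and Esm1 (ENSMUSG00000042379) lies at chr13:113209659-113218098 on the plus strand. In the cells kept they had from 2069 UMIs (Esm1) to 175232 (Flt1), with 2673 for Angpt1 and 4460 for Apln, so the low members have the wide intervals.

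After filters, 42395 cells remained, with 9358 to 12496 cells and a median of 4578.5 to 11904 UMIs in a library. They formed 29 clusters, of which 25 took 1 of 11 cell class names from marker genes ("-like"). Library 2 supplied most granulocyte-like cells and library 4 most macrophage-like cells. Of 53516 distinct barcodes, 308 occurred in 2 or more libraries. The endothelial-like class held 14684 cells, 3992 of library 1, 6731 of library 2 and 3960 of library 3. Library 4 had almost none, and its cells with endothelial markers were in a cluster of 1633 cells led by Ubd, Gbp2b and Cxcl9, of which 1614 came from library 4. That cluster had 5 of 9 endothelial markers above the other clusters but a median of 1854 UMIs and no endothelial marker among its leading genes, so it stayed unnamed. It is called the Ubd-led cluster and is described separately.

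The receptors were endothelial genes in these hearts. Relative to the mean of the other named classes, 6 of the 10 members (Pgf, Kdr, Flt1, Tek, Apln and Aplnr) were at least 2-fold higher in endothelial-like cells, against 7.47% of 11748 genes. In log2 ratio, Flt1 was 2.84 higher, Aplnr 2.78, Kdr 2.75, Tek 2.30, Apln 1.63 and Pgf 1.5. These ratios are of pooled libraries, and for Pgf the endothelial-like level was high in library 2 alone. In libraries 1 and 3, endothelial-like cells had less Pgf than pericyte-like cells (103 and 83.9 CPM) and smooth muscle-like cells (170 and 196). The median over the 10 members was 1.56, against 0.04 over all genes tested. Also 6 members had their highest class level in endothelial-like cells, namely Kdr, Flt1, Tek, Apln, Aplnr and Esm1. No share of all genes stands beside this second count. For Esm1 the lead was not clear, because its interval in endothelial-like cells (12.76 to 14.18 CPM) overlapped that in pericyte-like cells (10.46 to 13.8). With libraries pooled, Vegfa and Angpt1 were highest in fibroblast-like cells, and Pgf and Angpt2 in smooth muscle-like cells. For Vegfa this order did not hold in libraries 1 and 3, where granulocyte-like and macrophage-like cells were above fibroblast-like cells. In library 3, cardiomyocyte-like cells (96.1 CPM) and T/NK-like cells (76.7) were above fibroblast-like cells too.

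**Figure D1:**
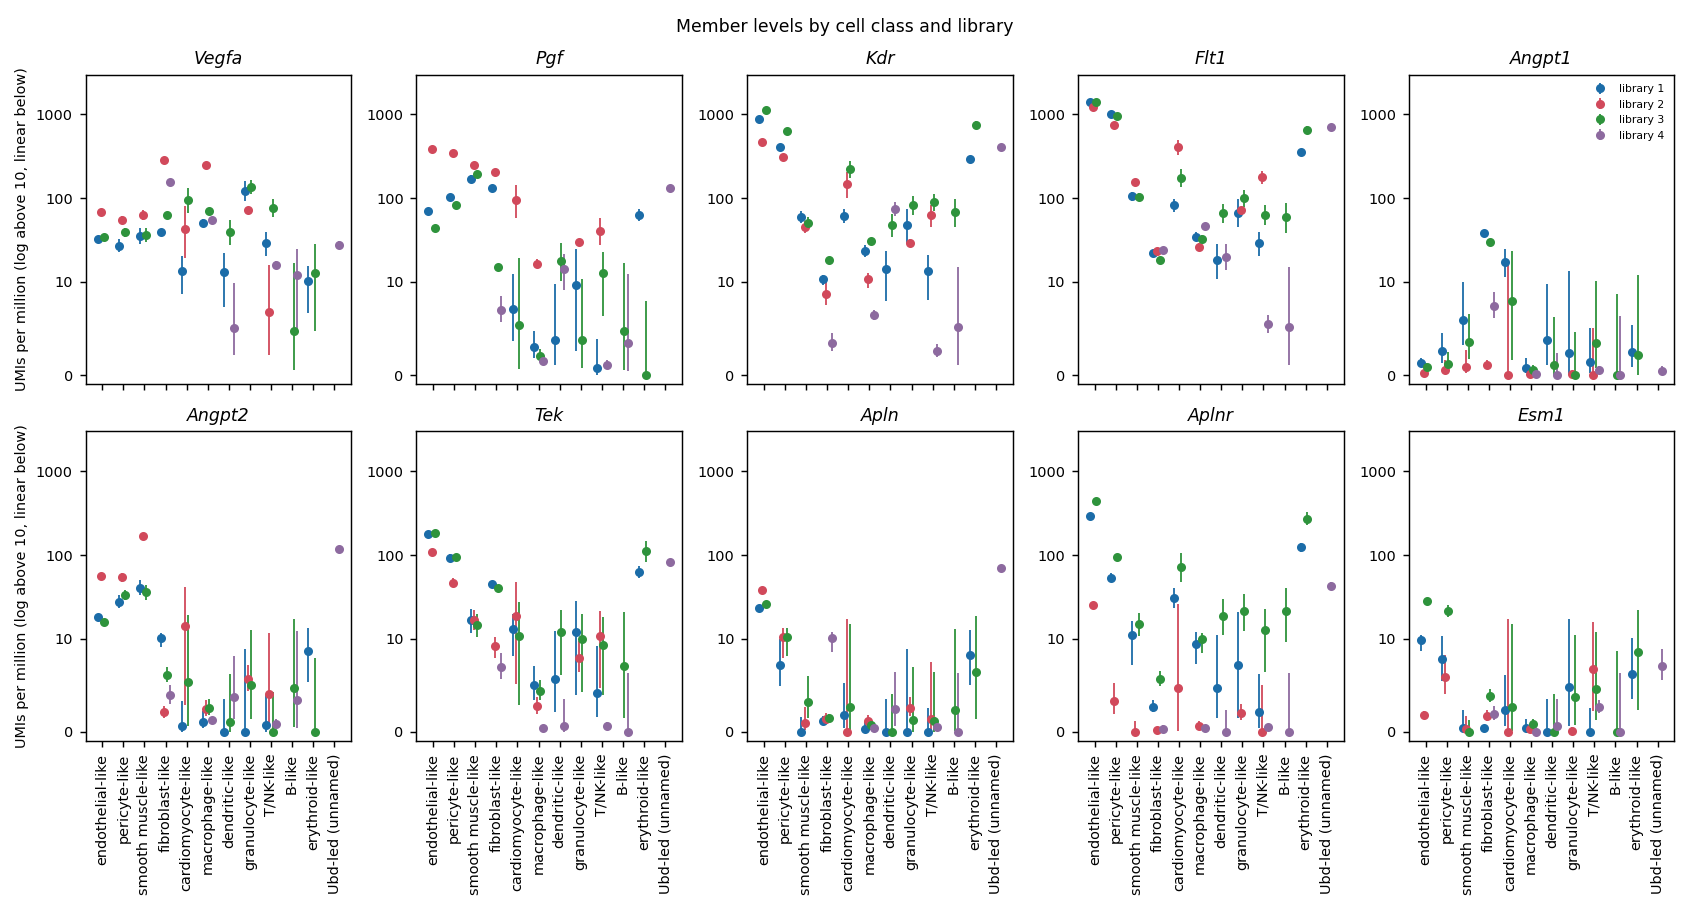
Level of each member (CPM, linear below 10 and log above) in each cell class, with 1 point per library holding at least 50 cells and bars for the exact 95% Poisson interval. Within each of libraries 1 to 3 the receptors Kdr, Flt1 and Tek are highest at the left, in endothelial-like cells, while Angpt1 is highest in fibroblast-like cells of libraries 1 and 3.

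Among the receptors, Flt1 was the most abundant in endothelial-like cells, at 1416 CPM in library 1, 1245 in library 2 and 1398 in library 3. The 3 libraries were close for this gene. Kdr stood at 876 CPM in library 1, 472 in library 2 and 1123 in library 3, so library 2 was the lowest. Aplnr varied more, with 296 CPM in library 1, 25.4 in library 2 and 440.0 in library 3. Tek was at 177, 107 and 183 CPM in libraries 1, 2 and 3. For comparison, Cdh5, which encodes the junction protein VE-cadherin, was at 1108, 1145 and 1386 CPM, and Pecam1 at 883, 885 and 1069.

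Endothelial-like cells held 79.9% of all Flt1 UMIs, 82.1% of Kdr, 89.8% of Aplnr and 71.8% of Tek, while they held 24.5% of all UMIs. Other classes also had some UMIs of these receptors. In those given here, Kdr stood in nearly the ratio to Cdh5 found in endothelial-like cells of the same library. In library 2, there were 41.2 Kdr UMIs for each 100 Cdh5 UMIs in endothelial-like cells, 38.8 in granulocyte-like cells, 41.4 in T/NK-like cells and 37.9 in macrophage-like cells. In library 3, the same count was 81.1 in endothelial-like cells, 93.0 in granulocyte-like, 84.4 in macrophage-like and 97.2 in erythroid-like cells. The Kdr level in these classes of libraries 2 and 3 thus moved with that of Cdh5, and it is not read as expression by them. This does not extend to Flt1 in macrophage-like cells, which had 348 Flt1 UMIs per 100 of Cdh5 with libraries pooled, against 109.7 in endothelial-like cells.

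The pericyte-like class, the cells that wrap capillaries, is a special case. It led on its own markers, with Abcc9, Kcnj8 and Vtn in front, yet it carried Cdh5 at 726 CPM against 1224 in endothelial-like cells. Its Kdr, Flt1, Tek and Aplnr levels were 454, 888, 77.4 and 51.5 CPM. Between 49.6% and 55.9% of its cells had a Cdh5 UMI in libraries 1 to 3, whereas 78.1% to 95.4% of endothelial-like cells did, so receptor levels in this class cannot be assigned to pericytes.

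A few receptor values outside the endothelium did not follow Cdh5. In macrophage-like cells of library 4, Flt1 was at 46.0 CPM (44.6 to 47.4) while Cdh5 was at 3.28, which makes 1404 Flt1 UMIs per 100 of Cdh5, against 103.5 in the Ubd-led cluster of that library. Kdr was also above that Cdh5 level, at 7.88 CPM in the cluster with 3825 of these cells and 4.62 in the one with 2047. Flt1 was detected in 38.5% of these 5895 cells at a median of 14832 UMIs per cell, and in 6.27% of the 1403 T/NK-like cells of the same library at a median of 11342. Macrophage-like cells of libraries 1, 2 and 3 had Flt1 at 34.9, 26.5 and 33.0 CPM, but with 107.5, 92.1 and 89.9 Flt1 UMIs per 100 of Cdh5, close to endothelial-like cells of their libraries (127.8, 108.7 and 100.9). Among macrophage-like cells, Flt1 beyond the endothelial ratio to Cdh5 was therefore seen in library 4 alone. Library 4 held 3825 of the 3826 cells of cluster 2 and 2047 of the 2065 of cluster 8. Library and cluster therefore cannot be told apart here. The higher ratio was not limited to macrophage-like cells. An unnamed cluster of 770 cells with granulocyte markers, 767 of library 4, had Flt1 at 25.2 CPM with Cdh5 at 7.69. That made 328 Flt1 UMIs per 100 of Cdh5, and 61.1 of Kdr. In dendritic-like cells of library 4, Kdr was at 74.8 CPM with Cdh5 at 47.7, from 122 cells.

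Tek in fibroblast-like cells did not follow Cdh5 either. The class was made of different clusters by library, which bears on each comparison of libraries in it: libraries 1 and 3 were mostly in cluster 7 (led by Cilp and Postn) and cluster 10 (led by Clec3b and Gsn), while cluster 19 (led by Prg4 and Cxcl5) held 795 cells of library 2 among its 801 and cluster 22 (led by Timp1 and Cfd) 561 of library 4 among its 567. For libraries 2 and 4, library and cluster therefore cannot be told apart. Fibroblast-like cells had Tek at 44.6 CPM (42.1 to 47.2) in library 1, 9.21 (7.94 to 10.6) in library 2, 40.8 (38.8 to 42.9) in library 3 and 7.02 (5.74 to 8.51) in library 4. Libraries 1 and 3 were high and libraries 2 and 4 low, with no overlap of intervals between the pairs. Tek made 252 and 209 UMIs per 100 of Cdh5 in fibroblast-like cells of libraries 1 and 3, against 16 and 13.2 in endothelial-like cells.

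Of the ligands, Vegfa had most of its UMIs in fibroblast-like and macrophage-like cells, which held 38.2% and 33.4%, while endothelial-like cells held 16.2%. Large and deep classes hold more UMIs of any gene. By level with libraries pooled, Vegfa was at 117 CPM in fibroblast-like, 79.3 in macrophage-like, 77.8 in granulocyte-like and 47.1 in endothelial-like cells. In fibroblast-like cells it was at 40.0 CPM (37.6 to 42.5) in library 1, 288 (281 to 296) in library 2, 62.4 (59.9 to 65.0) in library 3 and 154 (148 to 161) in library 4. Libraries 2 and 4, each mostly in a cluster of its own, stood above libraries 1 and 3. In macrophage-like cells, Vegfa was at 50.7 (45.4 to 56.5), 252 (244 to 259.9), 70.4 (66.4 to 74.7) and 54.4 (52.8 to 55.9) CPM in libraries 1 to 4, and there library 2 alone was high. The libraries held different macrophage-like clusters, however, and library 2 was at 291 CPM in the cluster with most of its cells (led by Arg1 and Ccl24; 74.8 and 135 in libraries 1 and 3) but at 14.8 in the one led by Fcrls, where libraries 1 and 3 had 43.8 and 66.6. Granulocyte-like cells had 123, 72.3 and 135 CPM in libraries 1, 2 and 3, but here too the clusters differed: library 2 was at 66.4 in its larger cluster and 179 in its smaller one, and libraries 1 and 3, mainly in a cluster led by Camp and Ltf, had 149 and 138 there.

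Angpt1, the TIE2 agonist, was a fibroblast gene here. Fibroblast-like cells held 85.4% of its UMIs and had it at 39.0 CPM (36.6 to 41.4) in library 1, 1.07 (0.672 to 1.62) in library 2, 30.4 (28.6 to 32.2) in library 3 and 7.43 (6.10 to 8.95) in library 4. Libraries 1 and 3 were high, library 4 was lower and library 2 was lowest, and the 2 high libraries were those that were high for Tek. No endothelial group that was named reached 6 CPM of Angpt1 in any library, and cardiomyocyte-like cells of library 1 had 17.2. Angpt1 and Vegfa were thus in opposite order across libraries in the same class. Between the highest and the lowest library, fibroblast-like cells had 5 of 8 members tested apart (Vegfa, Pgf, Kdr, Angpt1 and Tek), but so were 35.8% of all genes tested in them. Their pooled Kdr made 65.7 UMIs per 100 of Cdh5, near the 66.1 of endothelial-like cells. In macrophage-like cells 3 of 5 members tested (Vegfa, Pgf and Kdr) were apart, against 24.7% of genes.

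Pgf was found on both sides of the vessel wall. Smooth muscle-like cells had it at 170.0 CPM (154 to 188) in library 1, 249 (233 to 267) in library 2 and 196 (179.7 to 213) in library 3, a narrow range. In fibroblast-like cells Pgf was at 134 (129.9 to 139), 205 (199 to 211), 15.3 (14.1 to 16.6) and 7.02 (5.74 to 8.51) CPM in libraries 1 to 4. Libraries 1 and 2 were high and libraries 3 and 4 low. Within clusters the gap between libraries 1 and 3 was smaller: Pgf was at 190.2 CPM (library 1, 1538 cells) and 70.2 (library 3, 235 cells) in cluster 10, and at 14.2 (446 cells) and 10.6 (1616 cells) in cluster 7. Endothelial-like cells of library 2 had Pgf at 387 CPM, against 70.7 in library 1 and 44.5 in library 3.

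Angpt2 in smooth muscle-like cells was at 40.8 CPM (33.0 to 49.8) in library 1, 168 (154 to 183) in library 2 and 36.1 (29.4 to 43.8) in library 3. Library 2 stood apart and the intervals of libraries 1 and 3 overlapped. Only Angpt2 and Aplnr of 7 members tested were apart among the libraries in this class, against 11.2% of genes, and Aplnr there was at most 14.9 CPM. Apln was at most 10.5 CPM in any library of the other named classes. The highest were pericyte-like cells of libraries 2 and 3 (10.5 in each), which carried Cdh5, and fibroblast-like cells of library 4 (10.2, 8.63 to 12), where libraries 1 to 3 had 1.17 to 1.49. Apln made 75.5 UMIs per 100 of Cdh5 in those fibroblast-like cells and 1.62 and 1.24 in the pericyte-like cells of libraries 2 and 3. Esm1 stayed under 4 CPM in fibroblast-like and under 1 in macrophage-like cells.

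Endothelial-like cells were clustered again into 14 subclusters, with the members left out of the genes used for clustering. Of these, 12979 cells fell in groups named from markers as capillary (7610 cells), interferon (2495), Cxcl9 (1556), arterial (930), lymphatic (205) and cycling (183). The capillary name went only to subclusters with fewer than 3 markers of each other group. Interferon-, Cxcl9- and arterial-named cells also met 8, 7 and 5 of the 8 capillary markers, so their names do not mean that capillary markers were absent. The Cxcl9-named group took its name with 3 markers of its list (Cxcl9, Cxcl10 and Iigp1), the fewest that give a name. Interferon-named cells passed 5 markers of that same list. Cxcl9 itself was at 256 CPM in the Cxcl9-named group, against 669.7 in interferon-named cells. The groups were unevenly spread. Library 2 held 5182 of the capillary-named cells and none of its interferon-, Cxcl9- or cycling-named pools reached 50 cells. For this reason the groups are compared within a library first, wherever both held at least 50 cells.

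**Figure D2:**
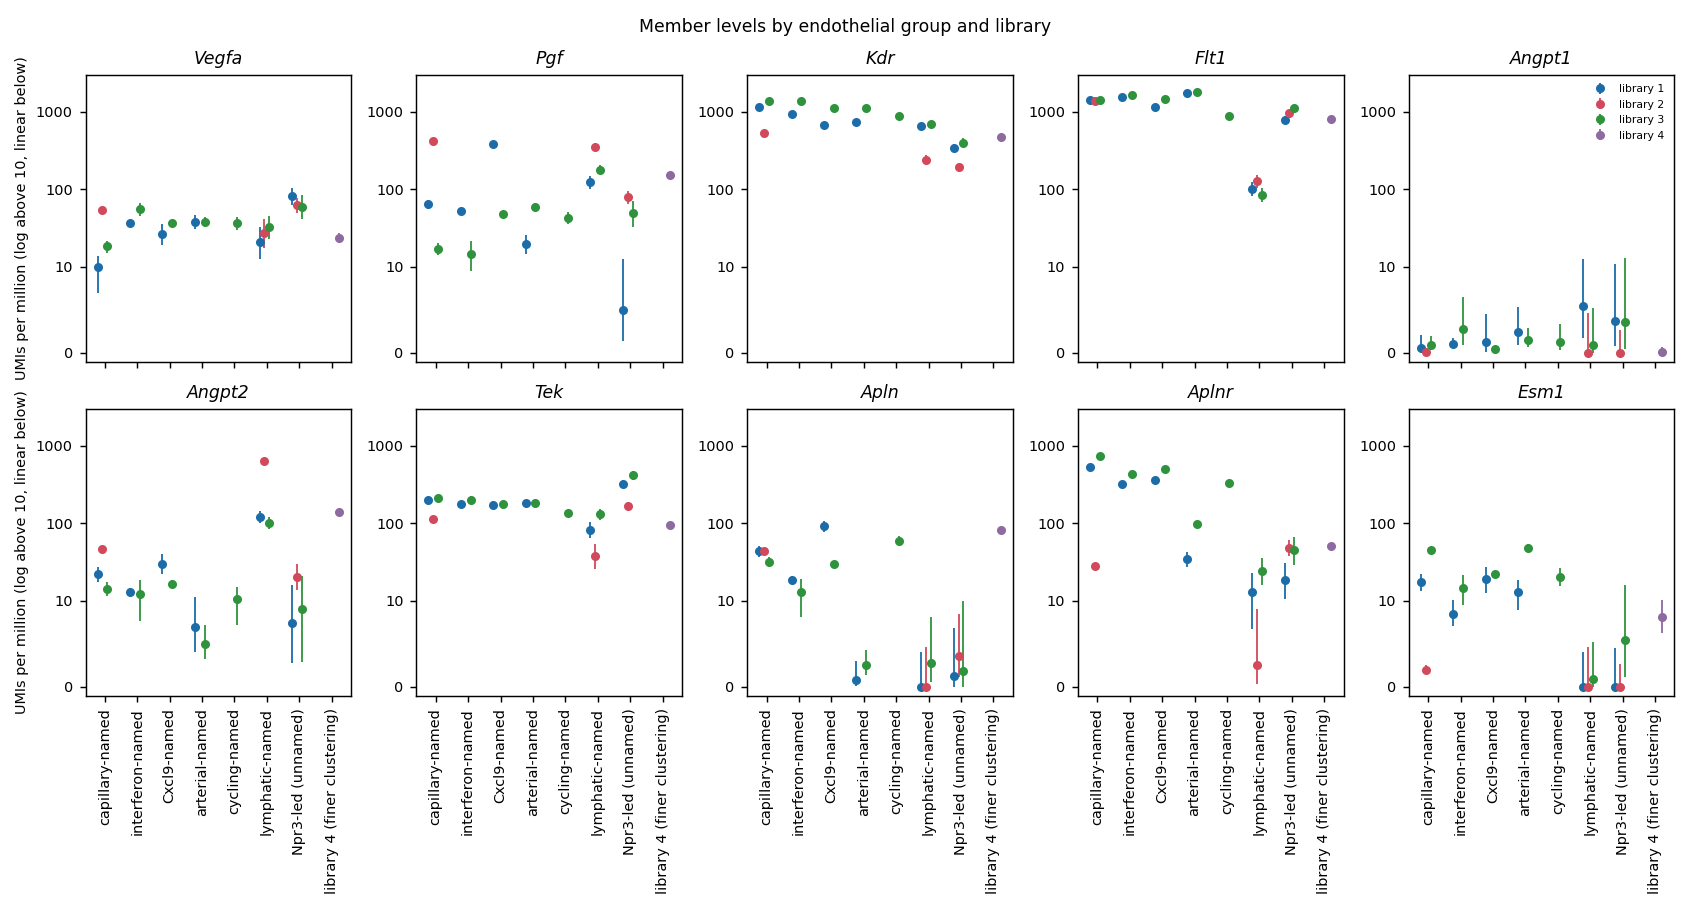
Level of each member (CPM, linear below 10 and log above) in each endothelial group, with 1 point per library holding at least 50 cells and bars for the exact 95% Poisson interval. Flt1 is near the bottom of its range in lymphatic-named cells, where Angpt2 is highest, and Apln is low in arterial-named, lymphatic-named and Npr3-led cells. Aplnr is below capillary-named cells of the same library in those groups too, except in Npr3-led cells of library 2 (48.1 against 28.0).

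Arterial-named cells had less of both apelin genes than capillary-named cells of their library, with Apln near 0. Apln was at 0.817 CPM (0.0989 to 2.95) in library 1 and 2.57 (1.40 to 4.30) in library 3, where capillary-named cells had 43.1 (36.5 to 50.5) and 31.7 (27.6 to 36.2). Aplnr was at 34.3 (27.4 to 42.5) and 96.6 (88.5 to 105) CPM in arterial-named cells, and at 533 (509.6 to 558) and 728 (708 to 748) in capillary-named cells. Both were lower in both libraries, by -2.30 and -1.73 for Apln and by -3.62 and -2.79 for Aplnr in log2 ratio. These 2 of 9 members tested were apart the same way in libraries 1 and 3, against 3.37% of genes, and with endothelial-like cells clustered at a resolution of 1 Aplnr alone was. Flt1 was at 1714 and 1783 CPM in arterial-named cells, somewhat above capillary-named cells, and Pgf went opposite ways, lower in library 1 and higher in library 3.

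With all libraries pooled, 5 members were apart between arterial- and capillary-named cells (Pgf, Angpt2, Apln, Aplnr and Esm1), against 5.38% of genes. The pooled capillary level is mostly that of library 2, however, and without library 2 only 2 members were apart. For this and the other changed settings, the share of all genes apart was not recounted. From the related genes, Vegfc, the ligand of VEGFR3, was higher in arterial-named cells by 2.13 in both libraries, and Nrp2, a VEGF coreceptor, was lower by -1.68 and -1.52. Those were 1 higher and 1 lower of 6 pathway genes tested. Of 16 tip-cell genes tested, 1 was higher in both libraries (Plaur) and 1 lower (Trp53i11).

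Lymphatic-named cells showed the widest departure. Flt1 was at 101 CPM (81.6 to 124) in library 1, 126 (103 to 153) in library 2 and 84.2 (67.8 to 103) in library 3. These intervals overlapped each other and lay far under the 1402, 1387 and 1402 CPM of capillary-named cells. The log2 ratios were -3.67, -3.36 and -3.91. Kdr was less affected, with 658, 236 and 695 CPM against 1150.3, 530.4 and 1359 in capillary-named cells.

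Angpt2 was the one member that was higher in lymphatic-named cells of each library. It was at 121 CPM (99.2 to 145) in library 1, 625 (571 to 682) in library 2 and 101 (82.9 to 122) in library 3, against 22.1 (17.5 to 27.6), 47.1 (44.8 to 49.5) and 14.2 (11.5 to 17.3) in capillary-named cells. Library 2 was again the highest in both groups, and the log2 ratios were 2.02, 3.48 and 2.20. Apln was not seen in the 80 cells of library 1, where 3 counts, the limit that a count of 0 allows, would be a share of 3.75% of cells with a UMI, nor in the 50 cells of library 2, where they would be 6%. Aplnr was at 13, 2.5 and 24.1 CPM.

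In all, 4 of 8 members tested (Flt1, Angpt2, Apln and Aplnr) were apart the same way in 3 of 3 libraries, against 7.54% of genes, and the same 4 were apart with libraries pooled, against 13.4%. Of 7 pathway genes tested, Flt4, which encodes the lymphatic receptor VEGFR3, was higher in each library (log2 ratios of 4.16, 2.71 and 3.58), while Vegfc, Nrp1 and Ptprb were lower. Of 16 tip-cell genes, 6 were lower and none was higher in each library, and Cd34 had the largest ratio. The lymphatic pools held 50 to 80 cells.

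**Figure D3:**
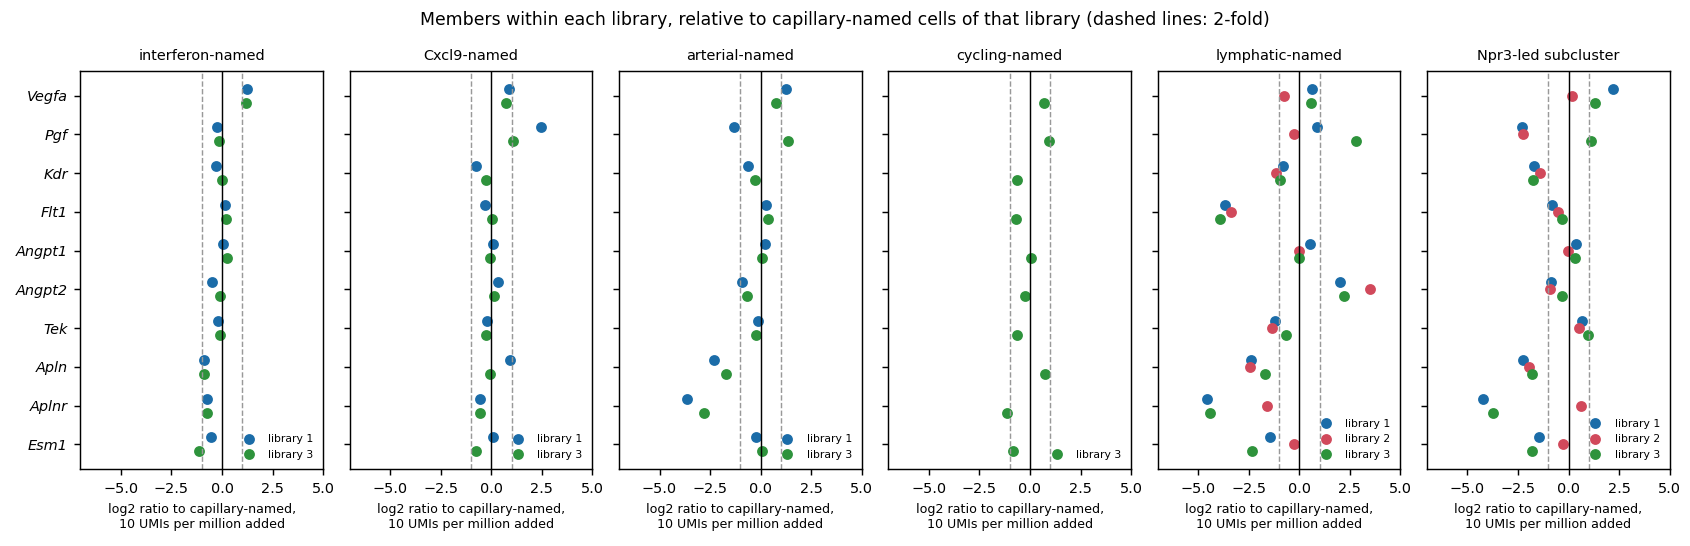
Log2 ratio of each member's level to that in capillary-named cells of the same library, after adding 10 CPM, for 6 endothelial groups, with 1 point per library and dashed lines at 2-fold. Points of different libraries lie on the same side of 0 for Flt1 and Angpt2 in lymphatic-named cells, with library 2 farther out for Angpt2, and on opposite sides for Pgf in arterial-named and Npr3-led cells.

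By the 2-fold limit, interferon-named cells differed little from capillary-named cells of their library in these genes. Vegfa was at 37.1 CPM (34.1 to 40.3) in library 1 and 55.1 (44.8 to 67.1) in library 3, against 9.93 (6.91 to 13.8) and 18.2 (15.2 to 21.7) in capillary-named cells. This was the only member of 9 apart in both libraries, with log2 ratios of 1.24 and 1.21, against 2.57% of genes. The level was not particular to these cells, since capillary-named cells were low. In libraries 1 and 3, Vegfa was at 37.6 and 37.9 CPM in arterial-named, 26.3 and 37.1 in Cxcl9-named and 81.6 and 59.6 in Npr3-led cells. Apln was lower in both, with ratios just short of 2-fold (-0.90 and -0.87). Aplnr was also lower in both, short of 2-fold but without overlap of intervals. It was at 319 and 433 CPM in libraries 1 and 3, against 533 and 728 in capillary-named cells. Capillary-named cells were the highest named group for Aplnr in both, and most of them there were in a subcluster led by Aplnr. Cxcl9-named cells had 361 and 492. With all clusters drawn at a finer resolution (1.6), with 20 principal components or with doublets kept, no member was apart in both. With libraries pooled, Pgf and Angpt2 were the members apart, against 4.97% of genes, with 1 member apart without library 2 and 5 without library 1.

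In Cxcl9-named cells Pgf was higher than in capillary-named cells, at 387 CPM (357 to 419) in library 1 and 47.3 (44.3 to 50.6) in library 3. Capillary-named cells of those libraries had 63.5 (55.5 to 72.4) and 17.1 (14.1 to 20.5). In library 3 the level was not particular to the group: lymphatic-named cells had 179, arterial-named 59.4, Npr3-led 48.7, cycling-named 42.5 and interferon-named 14.5. In library 1 the next highest named group was lymphatic, at 123, and the Pgf UMIs of Cxcl9-named cells were in 60 of 156 cells. Pgf was the 1 member apart in both, against 1.99% of genes, and with libraries pooled it turned lower (-1.99), because pooled capillary-named cells are mostly of library 2. Pooled, Pgf and Aplnr were apart, against 2.43% of genes, and neither was without library 2. Pgf was no longer apart within both libraries when the members were put among the clustering genes, when the interferon and Cxcl9 markers were left out of them, or when endothelial-like cells were clustered at a resolution of 1. Plaur, the urokinase receptor, and the glycolytic regulator Pfkfb3 were the tip-cell and hypoxia-list genes higher in both libraries, as they were in interferon-named and arterial-named cells.

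Cycling-named cells came almost wholly from library 3, where they numbered 175. There Aplnr was at 331 CPM (311 to 352) against 728 in capillary-named cells, a log2 ratio of -1.11, and it was the 1 member of 9 apart, against 5.62% of genes. At a resolution of 1.6 for all cells it was not apart. A lower Aplnr level was not particular to cycling-named cells, since capillary-named cells were the highest named group. In library 3, Aplnr was at 492 CPM in Cxcl9-named, 433 in interferon-named, 96.6 in arterial-named and 24.1 in lymphatic-named cells. Apln was at 59.3 (50.9 to 68.6) against 31.7, and Flt1 at 877 against 1402, both short of 2-fold. Pooled over libraries, 2 members were apart (Pgf and Angpt2), against 7.49% of genes, and without library 2 none was.

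One subcluster of 252 cells was led by H19, Npr3 and Cdh11 and held both venous markers (6 of 7) and endocardial ones (4 of 5), so it stayed unnamed. Its Vwf and Selp were at 1049 and 1127 CPM, and it also carried the fibroblast gene Dcn at 1714, against 101 in capillary-named cells. Kdr there was at 342 CPM (303 to 385) in library 1, 190.3 (168 to 215) in library 2 and 395 (345 to 451) in library 3, far below capillary-named cells in each. Apln was at 1.24, 3.64 and 1.81. These 2 of 8 members tested were apart the same way in each library, against 4.4% of genes.

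Tek in the Npr3-led cells went the other way. It was at 321 CPM (284 to 363) in library 1, 165 (145 to 188) in library 2 and 417 (365 to 474) in library 3, against 199.9 (185 to 215), 112 (108 to 115) and 212 (201 to 223) in capillary-named cells. The intervals did not overlap in any library, although the log2 ratios of 0.66, 0.53 and 0.95 did not reach 2-fold. Tek was thus higher and Kdr lower in the same cells. Of 16 tip-cell genes tested, 5 were lower in each library (Pdgfb, Unc5b, Col4a1, Col4a2 and Trp53i11) and none was higher.

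The other subclusters without a name carried RNA of other cells, and their member levels are given without comparison. A pair of them, 568 and 524 cells all but 1 of library 2, had S100a8 at 7888 and 8223 CPM and Vegfa at 196 and 199. Another, of 223 cells, had hemoglobin RNA, and a further 111 cells had platelet genes, a median of 805 UMIs and Pgf at 804 CPM.

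Across libraries, capillary-named cells differed widely in some members and hardly in Flt1. The name covers different subclusters: 2834 and 2343 of the library 2 cells were in subclusters 1 and 4, and 1008 cells of library 1 and 1414 of library 3 in subcluster 3, so library 2 and its subclusters cannot be told apart. Flt1 was at 1402 CPM (1363 to 1442) in library 1, 1387 (1374 to 1399) in library 2 and 1402 (1374 to 1430.2) in library 3. Kdr was at 1150.3, 530.4 and 1359, Aplnr at 533, 28.0 and 728, and Tek at 199.9, 112 and 212 CPM. Library 2 was lowest for all 3, and its intervals did not touch those of libraries 1 and 3. Cdh5 was at 1322, 1249 and 1418 CPM, so the drop in library 2 was not a drop of all endothelial genes.

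Pgf and Angpt2 had the opposite order in the same cells. Pgf was at 63.5 CPM (55.5 to 72.4) in library 1, 422 (415 to 429) in library 2 and 17.1 (14.1 to 20.5) in library 3. Angpt2 was at 22.1, 47.1 and 14.2, and Vegfa at 9.93, 53.4 and 18.2. Library 2 was highest for all 3 ligands. Apln, by contrast, was at 43.1, 43.6 and 31.7 CPM, and Esm1 at 17.3, 2.02 and 44.5.

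Between the highest and the lowest library, 6 of 9 members tested were apart in capillary-named cells (Vegfa, Pgf, Kdr, Angpt2, Aplnr and Esm1), against 14.4% of genes, and the median log2 ratio was 1.34 over members and 0.47 over genes. The largest ratios were 4.28 for Aplnr and 4 for Pgf. Without library 2, Pgf was the 1 member still apart, and the share of all genes was not recounted. In these capillary-named pools S100a8 and S100a9, granulocyte genes, also moved with the library: the granulocyte list made 0.184% of UMIs in library 2 and 0.007% and 0.004% in libraries 1 and 3. Whether that RNA has a part in the member levels was not tested. The library, the graft, the donor strain and the dissociation cannot be told apart here.

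**Figure D4:**
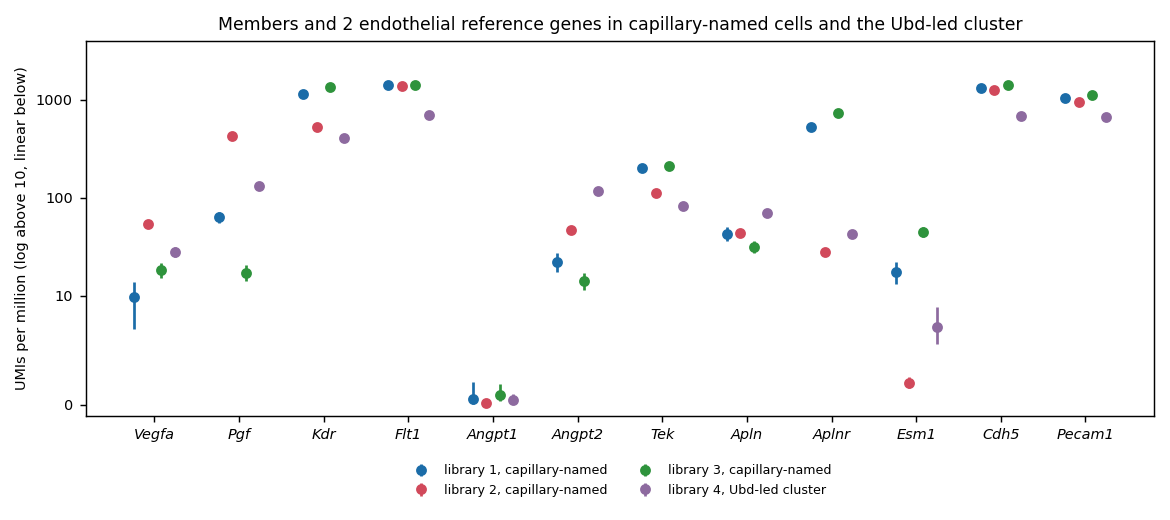
Levels (CPM, linear below 10 and log above) of the members and of Cdh5 and Pecam1 in capillary-named cells of libraries 1 to 3 and in the Ubd-led cluster of library 4, with exact 95% Poisson intervals. Libraries 1 to 3 coincide for Flt1, while library 2 is low for Kdr, Aplnr and Esm1 and high for Pgf, Vegfa and Angpt2.

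In library 4, cells with endothelial markers were in the Ubd-led cluster, which was not named endothelial-like. A Cdh5 UMI was seen in 43.7% of its 1633 cells (median 1854 UMIs), against 87.3% of endothelial-like cells (median 4812.5). Its pooled levels therefore cannot be assigned to endothelial cells alone. Ubd, which encodes the ubiquitin-like protein FAT10, was at 1394 CPM in the cluster and Cxcl9 at 8572. Flt1 was at 701 CPM (684 to 717), Kdr at 412 (399 to 424), Tek at 82.1 (76.6 to 87.9) and Aplnr at 42.9 (38.9 to 47.1) among its library 4 cells. Cdh5 was at 677 and Pecam1 at 672, both also lower than in capillary-named cells. Relative to Cdh5, Flt1 made 103.5 and Kdr 60.8 UMIs per 100 there, within the range of endothelial-like cells of libraries 1 to 3 for both (100.9 to 127.8 and 41.2 to 81.1). Aplnr made 6.33, between 2.22 in library 2 and the 26.7 and 31.8 of libraries 1 and 3.

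Relative to capillary-named cells of each library, Angpt2 and Apln were the members that were higher in the Ubd-led cluster. Angpt2 was at 118 CPM (112 to 125), above capillary-named cells of each library. Apln was at 69.7 (64.6 to 75.1), also above each of them, and Pgf at 132 (125 to 139.7) was between library 1 and library 2. Neither high level was particular to this cluster. Lymphatic-named cells had Angpt2 at 121, 625 and 101 CPM in libraries 1 to 3, and no library 4 cell was lymphatic-named. Cxcl9-named cells had Apln at 91.5 (77.2 to 108) in library 1 and 29.8 (27.4 to 32.4) in library 3. Of the 1633 cells of the cluster, 196 had an Angpt2 UMI and 104 an Apln UMI, against 714 with a Cdh5 UMI. Which cells of the cluster carried these UMIs was not tested. In library 4 the cluster held 80.3% of Angpt2, 76.0% of Apln and 78.0% of Pgf UMIs, and 7% of all UMIs. Against pooled capillary-named cells, 4 members were apart, Angpt2 higher and Pgf, Flt1 and Aplnr lower, against 10.7% of genes.

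Part of this cluster was shallow. At a finer clustering resolution of 1.6, 631 of the library 4 cells, with a median of 9617 UMIs, took the endothelial name. In them Angpt2 was at 140.1 CPM (132 to 148), Apln at 81.3 (75.3 to 87.7), Flt1 at 809.9 (791 to 829.6), Kdr at 475 (460.4 to 490.2) and Cdh5 at 787. All these were somewhat above the whole cluster and in the same order. Erythroid-list genes made 0.596% of their UMIs, against 2.0% in library 4 cells of the whole cluster, and macrophage-list genes 0.093% against 0.191%. The part of that RNA in the member levels was not tested.

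Of 9 gene pairs examined in single cells, Apln and Pgf are given for capillary-named cells of library 2, where Pgf was seen in a larger share of the cells with Apln. After each cell was thinned to 1000 UMIs, a Pgf UMI was seen in 65 of 102 cells with Apln (63.7%, exact binomial interval 53.6 to 73.0) and in 804 of 3966 cells without it (20.3%, 19.0 to 21.6). Angpt2 was seen in 11.8% (6.23 to 19.6) of the cells with Apln and 3.15% (2.63 to 3.74) of those without. Aplnr, the receptor gene of apelin, was seen in 0.98% (0.0248 to 5.34) and 2.34% (1.9 to 2.87), an overlap of intervals. Esm1 was seen in 0.98% and 0.20%, also with overlap. In the same pool, Pgf was seen in 35.0% of cells with Angpt2 and 20.9% of those without. For cells with and without Vegfa it was 23.4% and 21.2%, an overlap of intervals. Median depth before thinning was 5754.5 UMIs in cells with Apln and 5343.5 in those without. Of the capillary-named pools, that of library 2 alone had 50 cells with Apln after thinning, so the other libraries could not be compared. The intervals treat each cell of this library as a separate draw. Its pool joins subclusters 1 and 4, with Pgf at 272 and 466 CPM and Apln at 33.6 and 46.5. The part of that difference in the shares was not tested.

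Vegfa was set beside the 12 genes of a hypoxia list (among them Slc2a1, Pgk1, Bnip3 and Egln3), since hypoxia is its best known inducer. In macrophage-like cells the summed list was at 768 CPM in library 1, 2948 in library 2, 929 in library 3 and 2449 in library 4. In fibroblast-like cells it was at 561, 1823, 665 and 1793. Libraries 2 and 4 were high in both classes, as Vegfa was in fibroblast-like cells, whereas in macrophage-like cells of library 4 the list was high and Vegfa was at 54.4 CPM. Over 65 pools of 1 cluster or endothelial subcluster and 1 library with at least 50 cells each, Pearson's r of log levels was 0.52 for Vegfa and between -0.34 and 0.03 for the 9 other members. The pools share libraries and depth, so this is a description without a test.

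**Figure D5:**
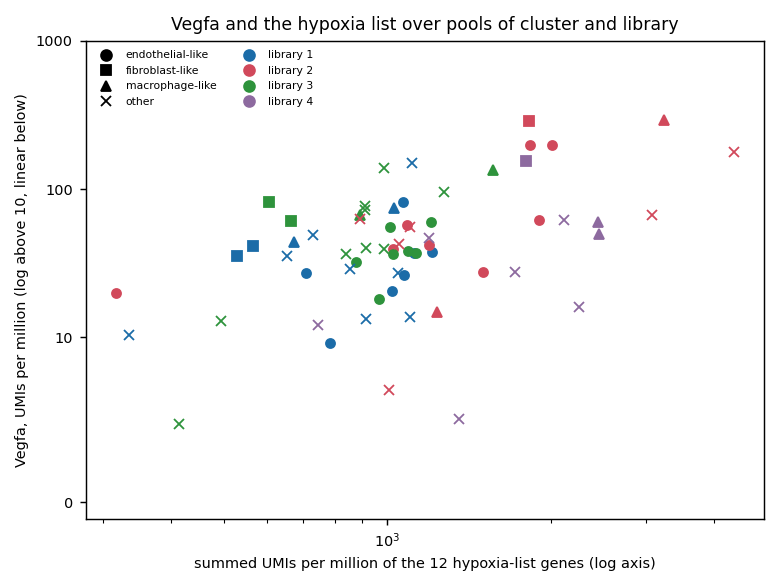
Level of Vegfa (CPM, linear below 10 and log above) against the summed level of the 12 hypoxia-list genes (CPM, log axis) in 65 pools of 1 cluster or subcluster and 1 library, with symbols for the class and colours for the library. Fibroblast-like pools of libraries 2 and 4 lie up and to the right of those of libraries 1 and 3, while macrophage-like pools of library 4 lie to the right with Vegfa below 100.

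Over the same 65 pools and 12057 genes, the genes nearest to each member by Pearson's r of log levels were listed as a description. Of these pools 22 were of endothelial subclusters, so r also carries the difference between endothelial and other pools. Those nearest to Kdr were Cdh5 (0.97), Myct1 (0.97) and Podxl (0.96), and those nearest to Flt1 were Adgrl4, Tspan7 and Esam (0.96 each). For Tek they were Fgd5, Jcad and Ramp2 (0.95 each), and for Aplnr Dok4, Pcdh12 and Sybu (0.91, 0.91 and 0.91). Angpt2 had Pgf as its second neighbour (0.77), after Btbd3 (0.79) and before Anxa7 (0.75). Pgf itself was nearest to Map3k6 (0.81), Eva1c (0.80) and Akap12 (0.79). Angpt1 was nearest to Cpz, Plekha6 and Podn (0.89, 0.89 and 0.88), Apln to Slc1a1 (0.83), Micall2 (0.80) and Dcbld1 (0.79), and Esm1 to Sybu, Papln and Lrrc3b (0.88, 0.88 and 0.87). Vegfa had the weakest neighbours, Thbs1, Vmp1 and Inhba, at 0.68, 0.68 and 0.66.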

How the data were processed

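The authors sequenced 10x 3′ v3 libraries of 4 grafts, and per the file headers the deposited matrix of UMI counts per gene and cell was made with Cell Ranger 3.0.0; the submitters' processing notes name mm10, CASAVA 1.8 and Seurat. The matrix holds 53824 cells, and 96020294 to 166079145 UMIs in a library. From it, cells with over 200 genes and under 20% mitochondrial UMIs were kept (44626), mitochondrial genes were removed, and the 5% of cells per library with most simulated doublets among 50 neighbours were left out (2231). The 2000 most dispersed genes, without the members and their pathway and tip-cell lists, gave 10 principal components, a shared-neighbour graph (30 neighbours) and Leiden clusters (resolution 0.8, endothelial-like cells 0.5), with leidenalg 0.10.2 and scipy 1.17.1 under Python 3.11.15. A cluster took a class name with at least 3 markers in 10% of its cells and 2-fold above the mean of the others. It stayed unnamed where another class led it, or where depth was low and its 10 leading genes held no marker of the class. A cluster of 2338 endothelial-like cells with a median of 950 UMIs thus kept its name. A capillary name needed 5 of 8 markers and fewer than 3 markers of each other endothelial group. UMIs were summed per group and library, and pools under 50 cells were left out. Genes at 10 CPM or more in either group entered a comparison. Intervals are exact Poisson and Clopper-Pearson intervals (95%). Because a pooled matrix is 1 sample, no test was run. The scripts were tested on simulated data. All 10 members are described. The 3 nearest genes were taken among those at 10 CPM in at least 3 pools, and lists are given by counts with at most 4 genes of largest ratio. Members and lists were chosen with earlier results of these data known. Promoter sequence is RefSeq's for GRCm38.p6.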

Additional observations from a re-analysis of the deposited data

How the results depend on the processing

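No paired analysis was possible because no barcode suffix can be tied to a graft and no test was run. Members higher in endothelial-like cells numbered 6 to 7 over 17 settings, and members highest there 5 to 7 over 14. The settings included leaving out each library, thinning to 1000 UMIs and, chosen after seeing the data, counting the Ubd-led cluster as endothelial-like, leaving out pericyte-like and erythroid-like cells, and using named endothelial groups only. The pooled lymphatic count (4) ranged from 3 to 6. No share of all genes was recounted for these ranges. The recounts within libraries were also added after seeing the data.

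Other pooled counts moved by over 1.5 times. Only members were recounted under each setting, so no share of all genes stands beside these counts. Without library 2, the arterial count went from 5 to 2, interferon from 2 to 1, Cxcl9 and cycling from 2 to 0, and the count between libraries in capillary-named cells from 6 to 1; the pooled capillary level is then no longer mostly that of library 2. Without library 1, interferon was 5. Leaving out each library in turn gave 2 to 5 for arterial and 0 to 2 for Cxcl9. With over 500 genes per cell, arterial was 2. At endothelial resolution 1, arterial was 3, cycling 1, interferon 1 and Cxcl9 1; at 0.3, cycling was 4. At resolution 1.6, interferon was 1. Thinning gave 1 for cycling, interferon and Cxcl9, and 1 CPM added gave 4 for Cxcl9. In the counts within libraries, arterial (2) became 5 at resolution 0.4 and with 20 principal components, 1 at endothelial resolution 1 and 4 with 1 CPM added. Cycling (1) became 0 at resolution 1.6, 2 with doublets kept and at endothelial resolution 1, and 3 with 1 CPM added. Interferon (1) became 0 at resolution 1.6, with 20 principal components and with doublets kept, 3 at endothelial resolution 1 and 2 with 1 CPM added. Cxcl9 (1) became 0 with the members among the variable genes, with its markers left out and at endothelial resolution 1, and lymphatic (4) became 7 after thinning.

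Some pooled log2 ratios changed sign. Arterial Esm1 was -1.10 at resolution 0.4, -0.36 with 20 principal components and -0.010 after thinning, and arterial Aplnr 3.91 at endothelial resolution 0.3. Without library 2, Pgf was 0.41 (arterial), 0.30 (cycling), 0.44 (interferon) and 0.97 (Cxcl9), and Cxcl9-group Aplnr was -0.45. That Aplnr was also -2.12 at resolution 1.6, -0.63 with 20 principal components, -1.68 with doublets kept and -2.08 with over 500 genes, where Pgf was 0.060, and without library 3 Pgf was 0.024. Except for library 2, the cause was not tested. Counting error is widest for Angpt1, Apln and Esm1, with 2673, 4460 and 2069 UMIs in all cells kept.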
